A study of Mus musculus with 6 samples.

Results

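The nuclear genes for the subunits of the respiratory chain and the ATP synthase were followed in low and in normal oxygen in HL-1, a line of cardiomyocytes that came from an atrial tumour of a mouse. Members were the genes whose probe sets carried 1 symbol of the Nduf (a, b, c, s or v series), Sdh (a to d), Uqcr, Cyc1, Cox5 to Cox8 or Atp5 families, without Ndufa4 and Ndufa4l2. Each gene was represented by its probe set with the highest mean log2 signal. The rule found 78 genes among 18193 with a 1-symbol probe set: 33 of complex I, 4 of complex II, 9 of complex III, 15 of complex IV and 17 of complex V. Of these, 77 passed the filter on dim probe sets, as did 11332 genes in all. The exception was Ndufb4, a membrane-arm subunit of complex I, whose probe set read 11.6 to 16.7 on the 6 arrays.

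Confluent HL-1 cells had been held for 8 hours in 1% oxygen (hypoxia, 3 arrays) or 21% oxygen (normoxia, 3 arrays), and total RNA was hybridised to 1-colour Affymetrix mouse arrays. Both groups are the same single line, and the labels name no genetic change. The labels do not say whether the 3 samples of a group were separate cultures, so the p-values cover the spread of these 6 samples alone, and that spread may be technical. Values are MAS5 signals, the array maker's linear brightness of a probe set. Signals of different probe sets depend on their sequences, so a brighter probe set need not mean more RNA. The brightest of a complex is named for its signal alone, and it need not have the smallest error.

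The respiratory chain moves electrons from NADH through complex I and from succinate through complex II to coenzyme Q, then through complex III and cytochrome c to complex IV, which passes them to oxygen. Complexes I, III and IV pump protons across the inner mitochondrial membrane, and complex V, the ATP synthase, uses the return flow to make ATP. Complexes I, III, IV and V combine nuclear subunits with subunits encoded in mitochondrial DNA, whereas all subunits of complex II are nuclear. Heart muscle is rich in these complexes, and oxygen is their final electron acceptor.

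The labelled cell type was checked by how many of its markers passed the filter, and summed signals are given only to compare the groups within a list. All 10 cardiomyocyte markers passed, with a summed signal of 34260 to 36270 in hypoxia and 35950 to 37920 in normoxia. Fibroblast markers (3 of 8 kept), endothelial markers (2 of 6) and macrophage markers (3 of 5) summed to at most 259 on any array. Smooth muscle markers were present (4 of 5 kept, with Myh11 below the filter), at sums of 12180 to 15120 in hypoxia and 11450 to 13340 in normoxia. None of these markers passed the test. Of the cardiomyocyte markers, Nppa (log2 fold change 0.76) was higher on every hypoxia array, and Tnni3 (-0.37) and Myl4 (-0.12) were lower. The groups overlapped for the other cardiomyocyte markers. Among the smooth muscle markers kept, Tagln (log2 fold change 0.37) and Cnn1 (0.49) were higher on every hypoxia array, whereas the groups overlapped for Acta2 (0.07) and Smtn (-0.38). Among the macrophage markers kept, Cd68 (1.14) was higher on every hypoxia array, and the groups overlapped for Adgre1 (-0.22) and Csf1r (-0.13). The part of these markers in the results was not tested. Of the genes used to check the response, the glucose transporter Slc2a1 rose by 2.08 on the log2 scale (SE 0.14, limma adjusted p = 0.00038), and the mitophagy protein Bnip3 rose by 2.87 (SE 0.27, adjusted p = 0.00138). Correlations between arrays over all probe sets kept were 0.932 to 0.97, and the lowest was between hypoxia replicate 3 and normoxia replicate 2.

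Nuclear subunit genes are known targets of the transcription factors NRF1, GABP, YY1 and the estrogen-related receptors, and genes induced by HIF often carry ACGTG. Promoter windows of 300 bases, 250 before and 50 after the start, were read from RefSeq's annotation of GRCm38.p6 for 65 of the 78 members by gene ID (70 windows, any window of a gene counted). On either strand, CCGGAAG (ETS family, GABP) stood in 17 of the 65 genes, or 26.2%, against 12.9% of 17492 protein-coding genes with a window. The palindromic NRF1 motif stood in 4, or 6.15%, against 1.47%, AAGATGGC (YY1) in 9, or 13.8%, against 3.57%, and AAGGTCA (estrogen-related receptors) in 8, or 12.3%, against 4.73%. ACGTG stood in 18, or 27.7%, against 23.2%. These shares are descriptions of letters in the windows, with no test. The 250 bases before the start are shown for 3 members whose values differ below, the broadly expressed complex IV subunit Cox6a1, the complex II anchor Sdhd and the complex I subunit Ndufv3. Capitals mark a match to one of the searched motifs on either strand.
Cox6a1, chr5:115348959-115349208, minus strand: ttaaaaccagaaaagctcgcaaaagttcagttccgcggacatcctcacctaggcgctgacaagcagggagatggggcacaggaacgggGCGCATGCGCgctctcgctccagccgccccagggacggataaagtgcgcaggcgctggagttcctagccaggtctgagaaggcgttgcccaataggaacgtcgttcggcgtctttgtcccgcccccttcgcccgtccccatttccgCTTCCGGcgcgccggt
Sdhd, chr9:50603850-50604099, minus strand: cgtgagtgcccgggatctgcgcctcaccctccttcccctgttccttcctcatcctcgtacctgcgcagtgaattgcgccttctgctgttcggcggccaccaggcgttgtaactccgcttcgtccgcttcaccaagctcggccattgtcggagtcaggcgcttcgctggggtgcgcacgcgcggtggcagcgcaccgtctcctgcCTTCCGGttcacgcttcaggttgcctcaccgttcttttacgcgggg
Ndufv3, chr17:31519865-31520114, plus strand: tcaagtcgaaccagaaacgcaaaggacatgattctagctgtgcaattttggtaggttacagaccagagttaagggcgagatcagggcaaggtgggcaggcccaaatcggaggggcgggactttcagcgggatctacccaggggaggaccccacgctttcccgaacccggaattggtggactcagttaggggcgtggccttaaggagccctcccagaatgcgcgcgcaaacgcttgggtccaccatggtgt
Cox6a1 holds the NRF1 motif and the ETS motif on its other strand (CTTCCGG), Sdhd holds CTTCCGG, and the Ndufv3 stretch holds no match to the motifs searched.

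After adjustment over all 22518 probe sets, 0 of the 77 subunit genes kept passed the test. Among all genes kept, 0.662% were called higher and 0.0882% lower (limma, adjusted p under 0.05), and 0 of 77 is near these shares. At an unadjusted p under 0.05 there were 3 subunit genes higher and 3 lower, against 6.13% and 6.3% of all genes kept. Among the alternative settings of limma, the only tool run, array weights gave 1 called higher (Ndufv3) and 1 lower (Cox6a2), and leaving out normoxia replicate 1 gave 1 lower (Cox6a2). In bulk RNA of a culture, fewer cells of a type and less RNA per cell cannot be told apart.

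The estimates lay close to 0. The median log2 fold change (hypoxia over normoxia) over the 77 genes was 0.02, beside -0.04 over all genes kept and 0.06 over the 851 genes with a geometric mean signal above 1000. A log2 fold change beyond 0.25 in either direction was seen for 8 of the 77, against 41.4% of all genes kept. Both this limit and the signal limit of 1000 were chosen after the values were seen. The 95% confidence interval lay within 0.5 log2 of 0 on both sides for 62 of the 77 and within 1 log2 for 73, each interval taken alone. The 4 with an interval reaching beyond 1 were Sdhc, Cox6a2, Cox7c and Cox8b. The groups did not overlap, with hypoxia higher, for 4 subunit genes, beside 8.16% of all genes kept, and with hypoxia lower for 7, beside 9.91%. The 851 genes above 1000 had narrower 95% intervals (median reach 0.27 log2 each way, against 0.45 for all genes kept). The 69 subunit genes with a geometric mean signal above 1000 were therefore also read against all 851 of these bright genes. A narrow interval does not show that a fold change is accurate. The brightest member, Uqcrb, had a geometric mean signal of 7336, and the highest signal on each array was 9203 to 11642. Whether signals this high still follow the amount of RNA was not tested, so values near 0 there need not mean stable RNA. Of the 69, 4 lay beyond 0.25, against 24.0% of bright genes. None was called, against 2.23% higher and 0.235% lower. At an unadjusted p under 0.05 there were 2 higher and 2 lower, against 12.9% and 4.94%. The groups did not overlap for 3 higher and 6 lower, against 15.4% and 7.05%. Of the 69, 36 were above 0 and 33 below, against 61.8% and 38.2%. An exact two-sided permutation test of 3 arrays against 3 cannot give a p under 0.1 for any gene.

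**Figure D1:**
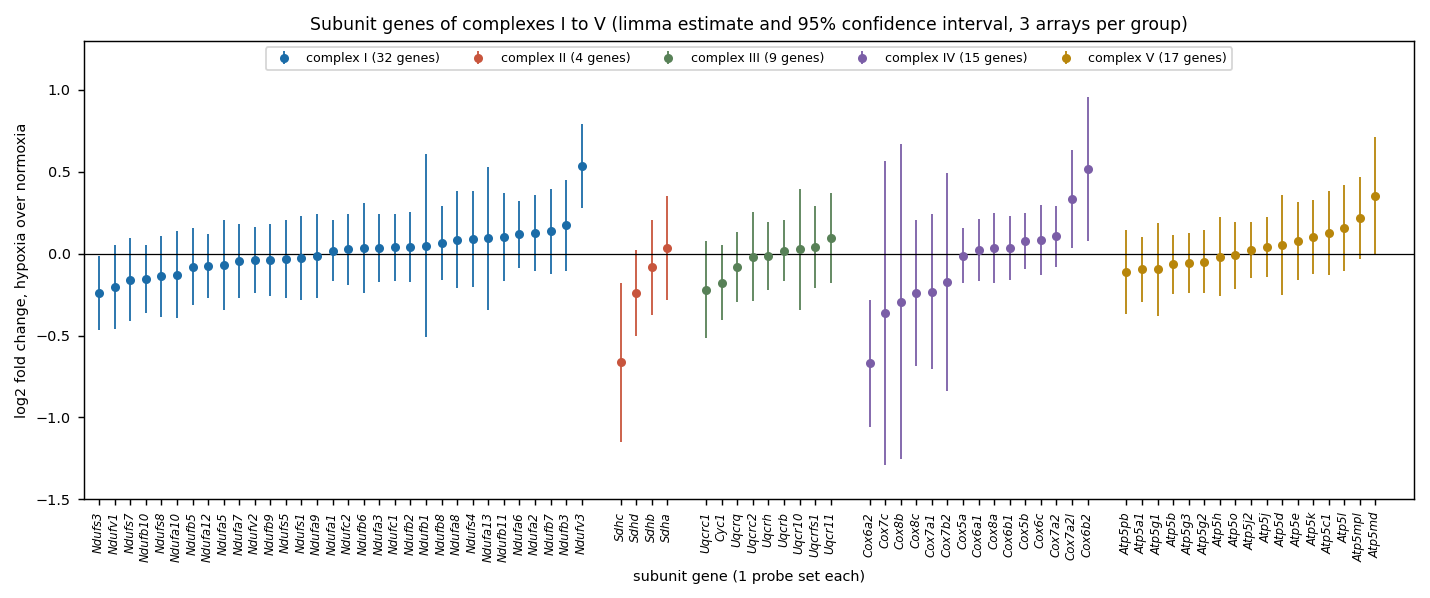
Log2 fold change (hypoxia over normoxia, vertical axis) of each of the 77 subunit genes kept, ordered within complexes I to V; points are limma estimates and bars 95% confidence intervals from 3 arrays per group. Most intervals span 0, while Ndufv3, at 0.54, and Cox6b2, at 0.52, lie highest and Cox6a2, at -0.67, and Sdhc, at -0.66, lie lowest.

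By complex, the medians were 0.02 for complex I, -0.16 for complex II, -0.02 for complex III, 0.02 for complex IV and 0.02 for complex V. In counts, 17 of 32 genes of complex I were above 0, 1 of 4 of complex II, 4 of 9 of complex III, 8 of 15 of complex IV and 9 of 17 of complex V. Over all complexes 39 of the 77 were above 0 and 38 below, beside 44.4% and 55.6% of all genes kept. These signs depend on the scaling for values so small: 19 of the 77 were above 0 after quantile normalization and 60 after centring each array on its median. The array medians were signals of 15 to 19, close to the filter's 14.1, so centring follows dim probe sets. Of the 77 members, 69 had a geometric mean signal above 1000. Relative to the normoxia mean, the mean log2 signal over the 4 genes of complex II was -0.24, -0.24 and -0.23 on the hypoxia arrays. On the normoxia arrays it was 0.07, -0.04 and -0.03. The likeness of the 3 hypoxia means does not show that the 4 genes moved alike. On hypoxia replicate 3, a low Sdhc (696) was averaged with Sdha (1872) and Sdhb (3103). Sdha and Sdhb there exceeded their normoxia mean signals of 1602 and 2847. The mean without Sdhc was not computed. On the deposited scale the groups did not overlap for complex II and overlapped for the other complexes. After median centring the hypoxia arrays of complex II stood at -0.0011, -0.20 and -0.18 and the normoxia arrays at 0.10, -0.15 and 0.04, and the groups overlapped. After quantile normalization the hypoxia arrays were lower without overlap for complexes I, II and III. On the deposited scale the hypoxia arrays of complex I stood at 0.03, -0.08 and 0.08 and those of complex V at 0.08, -0.06 and 0.09, on both sides of the normoxia arrays. On that scale hypoxia replicate 2 was the lowest of the 6 arrays for complexes I, III, IV and V.

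**Figure D2:**
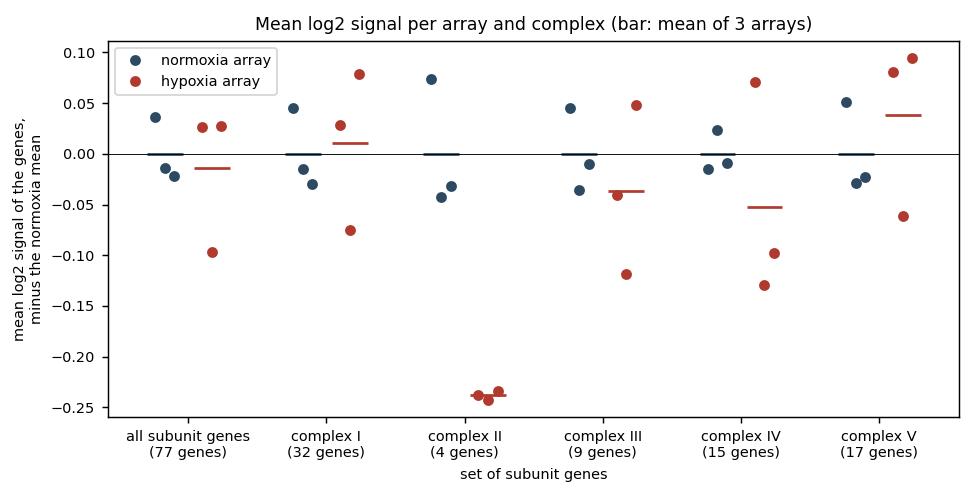
Mean log2 signal, on the deposited scale, of the genes of each complex on each array, minus the mean of the 3 normoxia arrays; points are arrays and bars the mean of 3. The complex II points of hypoxia lie between -0.24 and -0.23, below all normoxia points, and the groups overlap in the other complexes. After median centring they overlap for complex II too. The complex II point of hypoxia replicate 3 averages a low Sdhc with Sdha and Sdhb above their normoxia means.

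Complex I takes electrons from NADH. Its conserved nuclear core carries the flavin and the iron-sulfur clusters, and its accessory subunits surround that core and help to assemble or stabilise the enzyme. The 6 core genes measured (Ndufv1, Ndufv2, Ndufs1, Ndufs3, Ndufs7 and Ndufs8) were all below 0, with a median of -0.15. Of 26 accessory genes, 17 were above 0, with a median of 0.04. Among all genes with a geometric mean signal above 1000, 61.8% were above 0, with a median of 0.06. Among all genes kept, 44.4% were above 0. After median centring 4 of the 6 core genes and 2 of the 26 accessory genes were below 0, and after quantile normalization 6 and 17. Relative to the median of all genes, the core median ranged from -0.21 to -0.05 over the alternatives and the accessory median from -0.03 to 0.12. Of 10 other probe sets kept for the core genes, 8 were below 0 and 2, both of Ndufv2, were above it (0.13 and 0.02). This grouping was made after the values were seen and has no test.

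Ndufs3, a core subunit of the quinone-reducing end of the peripheral arm, had signals of 1140, 1209 and 1232 in hypoxia and 1398, 1428 and 1397 in normoxia. All hypoxia arrays were below all normoxia arrays, with a log2 fold change of -0.24 (SE 0.10, limma adjusted p = 0.431). It was named after its values were seen. Ndufv1, which binds NADH and the flavin, had a log2 fold change of -0.20 with overlapping groups. Its other 2 probe sets had -0.26 and -0.35 (limma adjusted p = 0.448 and 0.314), and the groups of neither overlapped. Ndufs7 had -0.16, or -0.03 on its other probe set, with overlapping groups in both. Ndufs8 had -0.14 with overlapping groups, and its 5 other probe sets lay between -0.15 and -0.05.

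The accessory subunit Ndufv3 had the smallest adjusted p of all members. Its signals were 3225, 2750 and 2605 in hypoxia and 1799, 2108 and 1992 in normoxia. Each hypoxia array was above each normoxia array, a 1.45-fold difference (log2 fold change 0.54, SE 0.11, 95% interval 0.28 to 0.79) that did not pass (limma adjusted p = 0.0896). Ndufv3 belongs to the NADH-oxidising end of the peripheral arm and is known to exist as a short and a long isoform. Its value rests on 1 probe set, so isoforms could not be separated here. With array weights it passed (adjusted p = 0.0211), and over all alternatives its adjusted p ranged from 0.0211 to 0.342.

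The other accessory genes lay between -0.16 and 0.17. Ndufb10 of the membrane arm (-0.16) was lower and Ndufa6 of the quinone-reducing end (0.12) higher on each hypoxia array. Ndufa1, the brightest probe set of complex I and part of the membrane arm, had 4942, 5049 and 4776 in hypoxia and 4611, 5046 and 4925 in normoxia. Its groups overlapped, with a log2 fold change of 0.02 and an interval of -0.16 to 0.20 (its sign turned after quantile normalization). Ndufb1 read 124 to 224 over the 6 arrays, and its interval of -0.51 to 0.61 was the widest of complex I.

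Complex II, succinate dehydrogenase, is shared with the TCA cycle. Its flavoprotein Sdha and iron-sulfur protein Sdhb form the catalytic head, and Sdhc and Sdhd anchor it in the membrane and bind coenzyme Q. Both anchor genes were below 0 with groups that did not overlap. Sdhc had 1124, 1288 and 696 in hypoxia and 1337, 1850 and 1621 in normoxia. Hypoxia replicate 3 was the lowest, and the log2 fold change was -0.66 (SE 0.22, limma adjusted p = 0.29), or -0.40 without that array. Another probe set of Sdhc, at 259 ± 156 in hypoxia and 318 ± 115 in normoxia (mean ± SD of 3 arrays here and below), had overlapping groups and a log2 fold change of -0.52 (SE 0.52).

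Sdhd had 1059, 1015 and 1185 in hypoxia and 1397, 1218 and 1233 in normoxia. The hypoxia arrays were all lower, by 0.24 on the log2 scale (SE 0.12, adjusted p = 0.499 with limma), and another probe set of the gene had a log2 fold change of -0.36 with no overlap (adjusted p = 0.54). In the catalytic head, Sdhb read 2571, 2393 and 3103 in hypoxia and 3271, 2661 and 2610 in normoxia, with overlapping groups and a log2 fold change of -0.08. Sdha had 1548, 1492 and 1872 against 1840, 1359 and 1608 in normoxia, also overlapping, with a log2 fold change of 0.03 on the brightest probe set and -0.17 on another. The anchor pair had a median of -0.45, which ranged from -0.52 to -0.34 over the alternatives, and the head pair a median of -0.02, which ranged from -0.13 to 0.09. The anchor median lies midway between Sdhc (-0.66) and Sdhd (-0.24). This split by structural part has no test.

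**Figure D3:**
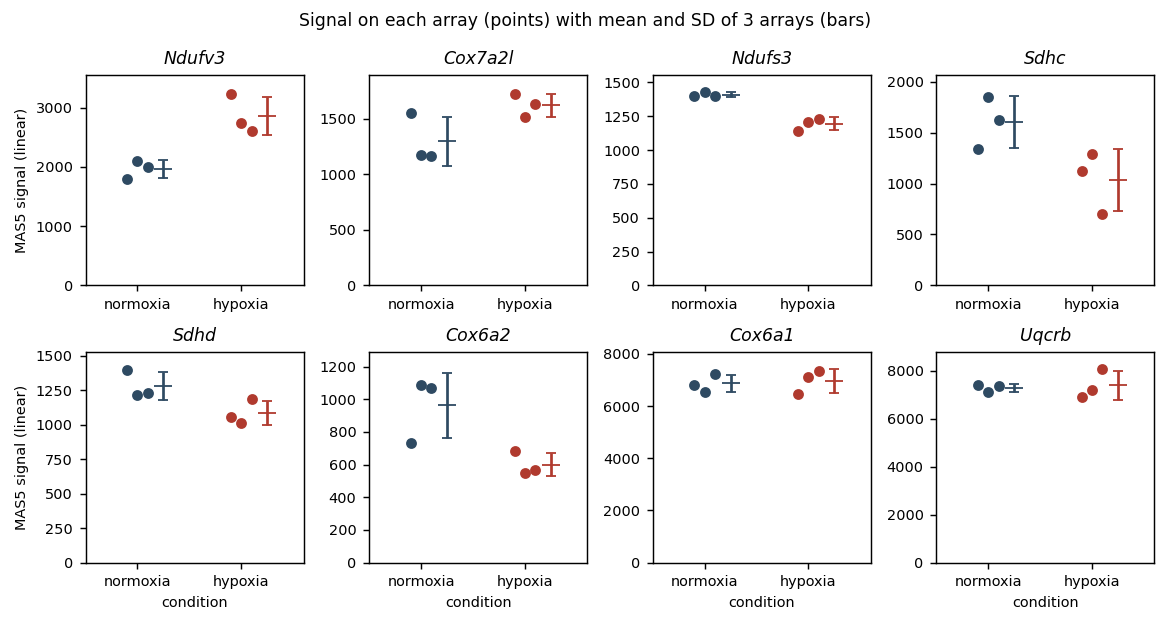
MAS5 signal (linear axis from 0) of 8 subunit genes on each array, with the mean and SD of 3 arrays beside the points. Hypoxia lies above normoxia without overlap for Ndufv3 and below it without overlap for Ndufs3, Sdhc, Sdhd and Cox6a2, and the groups overlap for Cox7a2l, Cox6a1 and Uqcrb.

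Complex III passes electrons from coenzyme Q to cytochrome c. Its nuclear redox subunits are cytochrome c1 (Cyc1) and the Rieske iron-sulfur protein (Uqcrfs1), its large core proteins are Uqcrc1 and Uqcrc2, and small subunits complete it. Cyc1 had 3344, 3301 and 3860 in hypoxia and 4201, 3603 and 4062 in normoxia. The groups overlapped, with a log2 fold change of -0.18 (SE 0.10, limma adjusted p = 0.579) that was below 0 in every alternative. Uqcrc1 read 1580, 1943 and 1723 in hypoxia against 1730, 2112 and 2293 in normoxia. Its groups overlapped too, with a log2 fold change of -0.22 (SE 0.13, limma adjusted p = 0.588), likewise below 0 in every alternative. Uqcrfs1 had a log2 fold change of 0.04 and Uqcrc2 of -0.02.

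The 5 small subunits lay between -0.08 and 0.09. Uqcrb, which helps to form the quinone-binding region, was the brightest probe set of complex III, at 7401 ± 603 in hypoxia and 7289 ± 160 in normoxia. Its interval of -0.17 to 0.21 included 0, and its sign turned after quantile normalization. Uqcrq (-0.08) was lower on each hypoxia array, at 1728 to 1838 against 1858 to 1973.

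Complex IV, cytochrome c oxidase, hands electrons to oxygen. Its catalytic core is encoded in mitochondrial DNA, and the nuclear members are small subunits that stabilise and regulate it, several of them as isoform pairs. In the pairs Cox6a1 and Cox6a2, Cox7a2 and Cox7a1, and Cox8a and Cox8b, the first is expressed broadly. The second is expressed mainly in heart and skeletal muscle. All broadly expressed genes except Cox7c, which is described below, lay between -0.01 and 0.10. Of these, Cox5b (0.08) was higher on each hypoxia array, at 6768 to 7204 against 6262 to 6726. The groups overlapped on its other probe sets kept. Cox6a1 had 6446, 7122 and 7342 in hypoxia and 6820, 6559 and 7229 in normoxia. Its groups overlapped, with a log2 fold change of 0.02 (interval -0.17 to 0.21), which turned below 0 after quantile normalization (-0.07). Cox7a2 had a log2 fold change of 0.10 (7125 ± 436 against 6624 ± 365) and Cox8a of 0.03 (2727 ± 115 against 2669 ± 177), with overlapping groups in both.

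The 3 muscle isoforms had estimates below 0. Cox6a2, the muscle partner of Cox6a1, had 683, 549 and 567 in hypoxia and 735, 1088 and 1070 in normoxia. Every hypoxia array was below every normoxia array, a 1.59-fold difference (log2 fold change -0.67, SE 0.17, 95% interval -1.06 to -0.28) that did not pass (limma adjusted p = 0.17). Normoxia replicate 1 was the nearest to the hypoxia arrays, and without it the gene passed (log2 fold change -0.85, adjusted p = 0.0322), as it did with array weights (-0.71, adjusted p = 0.0415). The highest adjusted p among the alternatives was 0.575, without normoxia replicate 3. Another probe set of Cox6a2 had 145 ± 47.4 in hypoxia and 226 ± 73.2 in normoxia, with overlapping groups and a log2 fold change of -0.63 (SE 0.29, limma adjusted p = 0.478).

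Cox7a1, the muscle partner of Cox7a2, had 1636, 966 and 1104 in hypoxia and 1133, 1738 and 1430 in normoxia. The groups overlapped widely, with a log2 fold change of -0.23 (SE 0.21, limma adjusted p = 0.725). That value ranged from -0.45 without hypoxia replicate 1 to -0.07 without hypoxia replicate 2, with -0.39 without normoxia replicate 1, -0.08 without normoxia replicate 2 and -0.12 after median centring. Cox8b, the muscle partner of Cox8a, was dim and scattered, at 259, 130 and 63.5 in hypoxia and 116, 172 and 197 in normoxia. Its log2 fold change of -0.29 (SE 0.43) turned to 0.22 without hypoxia replicate 3. Of the 10 cardiomyocyte markers, 4 were above 0 (Nppa 0.76, Myh6 0.13, Ryr2 0.07 and Myl7 0.0035) and 6 below (Actn2 -0.68, Nkx2-5 -0.38, Tnni3 -0.37, Myl4 -0.12, Tnnt2 -0.05 and Actc1 -0.04). The groups did not overlap for Nppa, Tnni3 (limma adjusted p = 0.1125) and Myl4, and overlapped for the other markers. No cardiomyocyte marker passed, and their part in the Cox6a2 value was not tested.

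Cox7a2l, a relative of the Cox7a subunits that joins complexes III and IV into supercomplexes, had 1719, 1512 and 1633 in hypoxia and 1552, 1173 and 1166 in normoxia. Normoxia replicate 1 reached into the hypoxia range, and the log2 fold change was 0.33 (SE 0.13, limma adjusted p = 0.41). Its other 2 probe sets had 0.20 and 0.20 on the log2 scale. Cox6b2, an isoform known from testis, read 87.9, 92.2 and 74.7 in hypoxia and 67.1, 51.5 and 59.8 in normoxia. The groups did not overlap at these low signals, with a log2 fold change of 0.52 (SE 0.20, limma adjusted p = 0.38). The other testis isoforms, Cox7b2 (-0.17) and Cox8c (-0.24), had overlapping groups at signals of 47.0 to 104. Cox7c, a broadly expressed subunit, was represented by a dim probe set at 13.9, 11.9 and 24.9 in hypoxia and 20.9 ± 3.84 in normoxia, close to the filter's 14.1, and its log2 fold change of -0.36 has an interval of -1.29 to 0.56.

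Complex V, the ATP synthase, has a catalytic F1 head on a central stalk, a rotating ring of c subunits, a peripheral stalk and small subunits in the membrane. In the head, the catalytic beta subunit Atp5b had a log2 fold change of -0.07 (5332 ± 239 in hypoxia and 5579 ± 190 in normoxia) and the alpha subunit Atp5a1 of -0.10 (3562 ± 204 and 3803 ± 119). Subunits gamma (Atp5c1), delta (Atp5d) and epsilon (Atp5e) had 0.13, 0.05 and 0.08. The peripheral stalk genes Atp5pb, Atp5h, Atp5j and Atp5o lay between -0.11 and 0.04.

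The c ring is built from a protein that 3 genes encode, Atp5g1, Atp5g2 and Atp5g3 (also named Atp5mc1 to Atp5mc3), which differ in their import sequences. All 3 were slightly below 0 on the deposited scale and slightly above it after median centring. Atp5g1 had 3244, 2990 and 3985 in hypoxia and 4020, 3276 and 3580 in normoxia, overlapping, with a log2 fold change of -0.10. Atp5g2 read 2946, 2903 and 2952 against 2955, 3087 and 3066 in normoxia. These groups did not overlap, but the gap between 2952 and 2955 was small beside the fitted error (log2 fold change -0.05, SE 0.09). Atp5g3, the brightest probe set of the complex, had 5978 ± 271 and 6216 ± 321, overlapping, with a log2 fold change of -0.06.

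The 5 small membrane subunits were all above 0, or 4 of 5 after quantile normalization, with a median of 0.16. All 5 had a geometric mean signal above 1000. Of all genes that bright, 61.8% were above 0 on the deposited scale, with a median of 0.06. This grouping by structural part has no test. Atp5md, also known as DAPIT, had 4302, 2981 and 4195 in hypoxia and 3244, 3239 and 2465 in normoxia. Hypoxia replicate 2 lay among the normoxia arrays, and the log2 fold change was 0.35 (SE 0.16, interval -0.01 to 0.71, limma adjusted p = 0.468). Atp5mpl had 0.22, Atp5l 0.16, Atp5k 0.10 and Atp5j2 0.02. Atpif1, the inhibitor that stops the synthase from running in reverse, was outside the rule by its symbol. Its signal was 2328 ± 262 in hypoxia and 2621 ± 222 in normoxia, a log2 fold change of -0.17 (SE 0.12, limma adjusted p = 0.628) with overlapping groups.

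**Figure D4:**
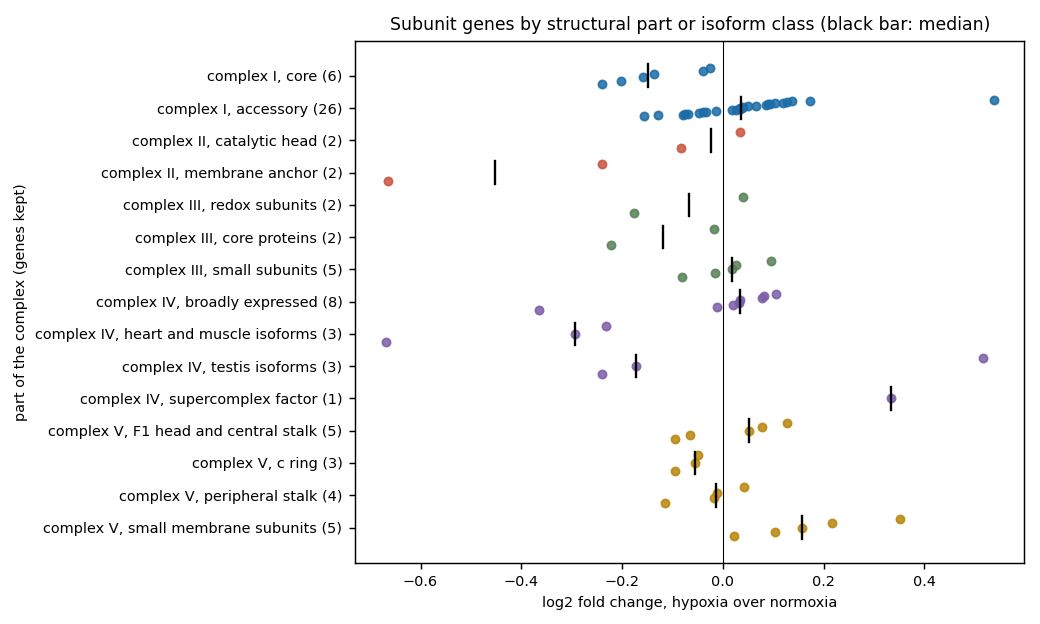
Log2 fold change (hypoxia over normoxia) of the subunit genes kept, by structural part or isoform class, with the number of genes in brackets and the median as a black bar. On the deposited scale the complex I core lies between -0.24 and -0.03 and the 3 heart and muscle isoforms between -0.67 and -0.23, while the small membrane subunits of complex V lie between 0.02 and 0.35; after median centring 2 of the 6 core genes were above 0, and after quantile normalization 1 of the 5 small membrane subunits was below it.

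Where a gene had more than 1 probe set, the others were set beside the representative. Another probe set was kept for 45 members, 72 in all. Of these, 66 lay within 0.25 log2 of the representative and 0 passed the test. The sign was the same for 50 and opposite for 22. Just 8 of the 77 representatives lay beyond 0.25 log2 of 0, so closeness at this limit says little about agreement. Of subunits outside the rule, Ndufa4 had a log2 fold change of 0.09, Cox4i1 of 0.06, the complex I acyl carrier protein Ndufab1 of -0.10 and the mitochondrially encoded ND5 of -0.16, with overlapping groups in each. The probe sets of the isoforms Ndufa4l2 and Cox4i2 were below the filter, at 27.2 ± 22.6 against 5.50 ± 1.15 for Ndufa4l2 and 16.2 ± 11.2 against 15.5 ± 5.16 for Cox4i2.

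The genes that build, feed and regulate the chain were taken from lists of gene symbols. These held 51 symbols for assembly factors and 20 for electron carriers and coenzyme Q enzymes. They also held 21 for regulators of mitochondrial biogenesis and 10 for uncoupling, ADP and phosphate carriers. Adck3, Adck4 and Peo1 are older symbols of Coq8a, Coq8b and Twnk, which are listed too. In these lists 0 genes passed. Over all genes kept, 55.6% were below 0 on the deposited scale. The counts below 0 given for the lists have no test. Of 45 assembly factors kept, 35 were below 0 (27 after median centring), with a median of -0.21 beside -0.04 over all genes kept. Their groups did not overlap for 9 lower and 0 higher, beside 9.91% and 8.16% of all genes kept. Cox10, which makes the heme A precursor of complex IV, had a log2 fold change of -0.74 (119 ± 28.9 in hypoxia and 202 ± 63.3 in normoxia, limma adjusted p = 0.365). Oxa1l, an insertase of the inner membrane, had -0.47 (139.7 ± 12.7 and 195 ± 28.6, limma adjusted p = 0.365), with no overlap.

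Of 16 carriers and coenzyme Q genes kept, 13 were below 0 (7 after median centring), with a median of -0.09. The coenzyme Q kinase Coq8a had -0.53 and Coq9, a lipid-binding protein of the same pathway, -0.45 (limma adjusted p = 0.2 and 0.382), and the groups of neither gene overlapped. Among regulators, 14 of 20 were below 0 (10 after median centring), with a median of -0.11. Polrmt, the mitochondrial RNA polymerase, had 74.5 ± 9.75 in hypoxia and 126 ± 11.9 in normoxia. Its groups did not overlap, and its log2 fold change of -0.76 had the smallest adjusted p of these lists (limma, 0.133). The coactivator Ppargc1b had -0.71 (limma adjusted p = 0.401). The 7 carriers of the last list had a median of -0.04, with the dim Ucp3 at -0.84 (11.8 ± 4.28 against 20.1 ± 2.61) and the outer membrane channel Vdac1 at 0.10.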

How the data were processed

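RNA from 6 HL-1 samples, 3 in hypoxia and 3 in normoxia by their titles, was measured on 1-colour Affymetrix arrays. The authors deposited 1 linear intensity per probe set and array, made with MAS5 per the submitters' processing notes, and its version is not named there. All 6 arrays shared a trimmed mean of 99.5, which puts the deposited values on a common scale. MAS5 signals are noisy near background, and no detection calls were used. Precision is limited by having 3 arrays per group.

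The 10 values of 0 among 45037 probe sets were set to 0.1, the smallest signal above 0, before log2. Probe sets with a mean log2 signal above the median were kept (22518, a geometric mean signal above 14.1). limma 3.58.1 in R 4.3.3 (lmFit, eBayes with a trend, two-sided, no covariate) compared hypoxia with normoxia, with Benjamini-Hochberg adjustment over all probe sets kept and calls at an adjusted p under 0.05. The procedure was also run on simulated data, drawn as independent normal values with variances from the fitted model. Such data cannot show how the fit handles signals that depart from that model. Names came from a platform annotation dated 2016 (34945 probe sets with 1 symbol, 932 with several, 9160 with none), and RefSeq (GRCm38.p6) gave the same symbol for all 78 members by gene ID. Subunits listed only with several symbols were not analysed here, and a few genes outside the rule are given beside the members.

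The members and lists were chosen with earlier results of these data known. Genes named are the 4 highest and 4 lowest log2 fold changes kept, any that passed, the brightest probe set per complex, complex II, the isoform groups of Cox6a, Cox7a, Cox8 and Atp5g, Uqcrc1, Cyc1 and Atpif1, the check genes and the 2 largest values of each list. Others were named after their values were seen. The alternatives were other scalings, an offset of 2.9, other filters, variance models and weights, the replicate block, other choices of probe set and leaving out each array.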

Additional observations from a re-analysis of the deposited data

How the results depend on the processing

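Of 18 alternatives, 16 left 0 subunit genes called; array weights gave 1 higher and 1 lower, and leaving out 1 array gave 0 to 1 lower. Scaling moved the medians. After quantile normalization they were -0.082 for all subunit genes, -0.072 for complex I, -0.22 for complex II, -0.098 for complex III, -0.066 for complex IV and -0.077 for complex V. After median centring, which raised the median of all genes by 0.11, they were 0.13, 0.13, -0.051, 0.095, 0.13 and 0.13 in that order. Relative to all genes, the subunit median was 0.06 on the deposited scale and after centring and -0.07 after quantile normalization. With 1 array left out, the complex II median ranged from -0.25 to -0.079. Of 22 named genes, 12 kept their sign in every alternative and 10 turned at least once. Signs turned after quantile normalization for Ndufa1 (-0.11), Uqcrb (-0.082), Cox6a1 (-0.066), Sdha (-0.010) and Cox8a (-0.041), and after median centring for Sdhb (0.027), Atp5g3 (0.055), Atp5g1 (0.015) and Atp5g2 (0.062). Array weights turned Uqcrb (-0.018) and Cox6a1 (-0.038), and the mean of all probe sets turned Uqcrb (-0.051) and Sdha (-0.061).

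Leaving out 1 array gave the following ranges for genes that turned. They were Cox8b from -0.80 to 0.22, Uqcrb from -0.046 to 0.065, Cox6a1 from -0.019 to 0.075, Sdha from -0.079 to 0.14, Cox8a from -0.024 to 0.064, Ndufa1 from -0.019 to 0.046 and Sdhb from -0.19 to 0.020. The cause of these turns was not tested. With the replicate number as a block 0 subunit genes were called, and the smallest adjusted p among them was 0.202. Deviations of same-numbered arrays from their group means correlated at -0.08, 0.21 and -0.14, and only hypoxia replicate 2 correlated best with its own number, so the numbers were not taken as pairs. All genes called went from 75 higher and 10 lower to 61 and 2 with the block, to 197 and 80 with array weights and to 7 and 2 without the variance trend. With 1 array left out they ranged from 22 to 101 higher and from 1 to 27 lower. Dim probe sets limit what could be seen for Cox7c, Cox8b and Ndufb1, whose intervals are wide.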
